A study of Homo sapiens with 4 samples.

Results

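The SLC1A family comprises 7 human genes, SLC1A1 to SLC1A7, and all 7 were listed among the 18134 genes of the expression table. Members were taken by gene symbol, and the family was chosen by the low level of SLC1A6 in the TPX2-knockdown libraries. The comparison between the groups is therefore given for the members as a description, and no test call on a member is read as a result. The libraries came from PC9, an established human lung adenocarcinoma cell line that carries an activating EGFR mutation, grown in DMEM with fetal bovine serum. Stable lines had been made with lentivirus carrying a short hairpin RNA against TPX2 (shTPX2) or a negative control hairpin (shNC), and infected cells were selected with an antibiotic. Each group had 2 libraries, all from 1 batch by the labels, and no label says that the libraries of a group were separate cultures, so their spread may be technical. Each group thus stands for 1 hairpin in 1 cell line.

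SLC1A proteins carry amino acids into cells by letting sodium ions flow in with them. SLC1A1, SLC1A2, SLC1A3, SLC1A6 and SLC1A7 encode the excitatory amino acid transporters (EAATs), which take up glutamate and aspartate and are best known for clearing glutamate from synapses. SLC1A4 and SLC1A5 encode the neutral amino acid exchangers ASCT1 and ASCT2, which handle alanine, serine and cysteine, and in the case of ASCT2 also glutamine, a main carbon and nitrogen source of cultured tumor cells. Inside the cell, glutamine and glutamate feed the synthesis of nucleotides, proline and glutathione.

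The division into glutamate and neutral amino acid carriers can be read from the coding sequence. The stretch below holds the Asn-Met-Asp-Gly codons of the conserved substrate-binding region, in capitals with the codon that follows them, which encodes threonine in the 5 EAAT genes and alanine in SLC1A4 and SLC1A5. Each run is the coding strand, 5′ to 3′, from the GENCODE v29 annotation of GRCh38, and it lies within 1 coding exon.
SLC1A1: gcaacaatcAACATGGATGGGACTgcgctc
SLC1A2: gcaaccattAACATGGATGGTACAgccctt
SLC1A3: gccaccattAACATGGATGGGACTgccctc
SLC1A6: gccacggtcAACATGGATGGCACTgccctc
SLC1A7: gccaccatcAACATGGACGGCACTgcgctc
SLC1A4: gccaccgtgAACATGGACGGAGCAgccatc
SLC1A5: gccaccgtcAACATGGACGGTGCCgcgctc
The SLC1A6 stretch is at chr19:14954212-14954241 on the minus strand, in exon 7 of 9, and its first asparagine is codon 423 of 564. The SLC1A1 stretch is at chr9:4576657-4576686 on the plus strand, in exon 10 of 12, and the SLC1A5 stretch is at chr19:46777288-46777317 on the minus strand, in exon 6 of 8. The others lie at chr11:35286834-35286863 on the minus strand for SLC1A2, at chr5:36680483-36680512 on the plus strand for SLC1A3, at chr2:65018159-65018188 on the plus strand for SLC1A4 and at chr1:53090689-53090718 on the minus strand for SLC1A7. Over the whole coding sequence, SLC1A6 was closest to SLC1A3, with 73.9% of aligned bases identical, and furthest from SLC1A2. The neutral amino acid exchangers SLC1A4 and SLC1A5 shared 71.5% with each other.

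The hairpin targeted the TPX2 transcript at the sequence below, as given in the study's methods, and its antisense strand is shown with bases 2 to 8, the seed, in capitals.
target: cgtgaacttgatcccagaata
antisense: tATTCTGGgatcaagttcacg
The 7-base complement of the seed, CCAGAAT, was present once in the longest coding transcript of TPX2 and in 27.3% of 19669 protein-coding genes, and it was in none of the 7 SLC1A transcripts searched. SLC1A6 shared a run of at most 10 bases with the target, the other members 7 to 9, and TPX2 all 21. A match or its lack in these letters is a description of sequence and no measure of silencing.

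Depth was close to even, with totals of 20906441 to 21972583 expected counts per library. TPX2, the spindle assembly factor that was targeted, was listed at 55.01 and 111.85 TPM in shNC and at 43.35 and 43.77 TPM in shTPX2 (log2 fold change −0.81, SE 0.32, edgeR adjusted p = 0.618, n = 2 per group). TPM is scaled for transcript length and library total, so that levels of different genes can be set side by side. shNC 2 had the highest TPX2 level. Across 14048 genes its log2 CPM values correlated with those of the other libraries at r = 0.966 to 0.972, across genes that are not independent replicates. The pair of shNC 1 and shTPX2 2 fell within that range (r = 0.971), and the pair of shTPX2 1 and shTPX2 2 was above it (r = 0.979). shNC 1 and shTPX2 1 were the closest pair of libraries (r = 0.983) although they carry different hairpins. All 7 epithelial markers and 5 of 7 lung adenocarcinoma markers reached 1 TPM, while SFTPA1 and SFTPC, made by differentiated alveolar cells, did not. Of the markers of other cells, 1 of 7 for fibroblasts, 2 of 5 for endothelium and 3 of 6 for leukocytes reached 1 TPM. The fibroblast markers summed to 9.19 to 12.4 TPM in shNC and to 5.9 to 8.29 TPM in shTPX2, without overlap. In shNC and shTPX2, the sums were 19.9 to 32.6 and 31.1 to 36.5 TPM for endothelium. For leukocytes they were 9.77 to 32.6 and 10.1 to 17.6 TPM. The part of such cells in the values below was not tested.

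The counts of the 4 libraries separated the SLC1A genes into 3 sets of values. SLC1A6 and SLC1A7 were lower in both shTPX2 libraries, SLC1A1 was higher in both, and SLC1A2, SLC1A3, SLC1A4 and SLC1A5 overlapped between the groups in TPM. Such a lack of overlap was frequent. In TMM-scaled CPM, 19.4% of all tested genes were higher in both shTPX2 libraries and 20.2% were lower in both.

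**Figure D1:**
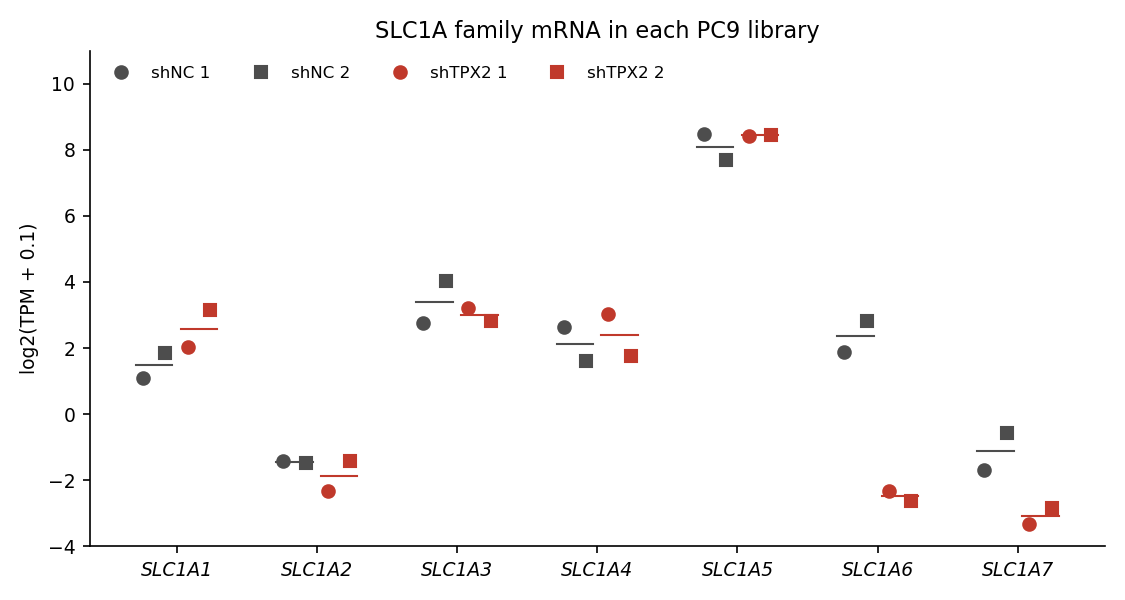
Level of each SLC1A gene in each library as log2(TPM + 0.1), with shNC in grey, shTPX2 in red, circles for library 1, squares for library 2 and lines at the group means on this scale. SLC1A6 lies at 3.58 and 6.97 TPM in shNC and at 0.1 and 0.06 TPM in shTPX2, and SLC1A5 is the highest gene in every library, with its lowest level of 205.62 TPM in shNC 2.

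SLC1A6 encodes EAAT4, a glutamate transporter known best from cerebellar Purkinje cells. The gene (NCBI gene 6511) lies on the minus strand of GRCh38.p14 at chr19:14950033-15010643. Its level was 3.58 and 6.97 TPM in shNC 1 and shNC 2 and 0.1 and 0.06 TPM in shTPX2 1 and shTPX2 2. Both shNC libraries were far above both shTPX2 libraries, and the gap between the shNC libraries was smaller than the gap between the groups. The means were 5.28 ± 2.4 TPM in shNC and 0.08 ± 0.0283 TPM in shTPX2 (SD, n = 2 each).

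The expected counts behind these SLC1A6 levels were 73 and 146.4 in shNC and 3.04 and 1.81 in shTPX2. As rounded counts, the 2 shNC libraries held 219 in all and the 2 shTPX2 libraries 5, a ratio of 41.6 at their depths (95% exact counting interval 17.6 to 130). The fitted log2 fold change over all genes was −5.31 (SE 0.63). Of the 3 counts in shTPX2 1 the 95% Poisson interval reached from 0.619 to 8.77, and of the 2 in shTPX2 2 from 0.242 to 7.22. These intervals cover counting error only and describe the values that chose the family. Leaving out any single library kept the SLC1A6 log2 fold change between −5.7 and −4.75. In bulk libraries, fewer cells with the transcript and less transcript per cell cannot be told apart.

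In shNC, SLC1A6 was a transcript of middling rank, at the 39.4th percentile of all listed genes by TPM in shNC 1 and at the 45.4th in shNC 2. Of its 31-base words in GENCODE v29 transcripts, 4.44% also occur in other genes, among them the neighboring CCDC105, and its expected count was not whole in 3 of the 4 libraries, and how the quantification shared out such reads was not tested. The Purkinje cell markers PCP2, CALB1, PCP4 and PVALB were examined beside it. The table listed 2 of these 4, of which PCP2 reached 1 TPM, and their summed level was 1.75 to 2.5 TPM in shNC and 1.12 to 2.06 TPM in shTPX2. Their part in the SLC1A6 result was not tested.

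SLC1A6 has 2 annotated transcription starts in the RefSeq promoter table for GRCh38.p14, and the 250 bases before each are shown because this gene had the largest difference between groups in the family. The first window, at chr19:15010644-15010893 on the minus strand, has 63.2% GC and 16 CpG dinucleotides.
SLC1A6 distal start: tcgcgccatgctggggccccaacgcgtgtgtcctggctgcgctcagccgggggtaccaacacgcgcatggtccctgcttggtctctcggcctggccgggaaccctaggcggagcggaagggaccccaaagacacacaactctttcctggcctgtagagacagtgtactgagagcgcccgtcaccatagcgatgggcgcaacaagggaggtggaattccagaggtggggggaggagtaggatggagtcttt
The second, at chr19:14979865-14980114 on the minus strand, has 76.0% GC and 23 CpG dinucleotides, and capitals mark its 3 GC boxes.
SLC1A6 proximal start: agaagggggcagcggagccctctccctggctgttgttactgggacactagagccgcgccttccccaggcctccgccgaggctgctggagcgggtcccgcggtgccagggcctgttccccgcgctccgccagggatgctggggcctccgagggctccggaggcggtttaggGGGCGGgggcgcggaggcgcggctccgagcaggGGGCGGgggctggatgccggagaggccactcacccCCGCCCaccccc
Searched on both strands were the E-box CACGTG, the core TGATGNAA of the amino acid response element, the TATA box TATAAA and the GC box GGGCGG, motifs that do not overlap one another here. Of 35116 promoter windows of this length, 42.6% hold a GC box, 6.34% the E-box, 3.14% the amino acid response core and 10.7% the TATA box. The first SLC1A6 window holds none of these letters, which says nothing of factors bound there. The median window has 58.0% GC and 11 CpG dinucleotides, so both SLC1A6 windows are richer than the median in each.

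The nearest listed genes on either side of SLC1A6 were both low. OR7A17, an olfactory receptor gene, was listed at 0 TPM in 3 libraries and at 0.1 TPM in shTPX2 1, and was too low to be tested. CASP14, a caspase of differentiating skin, was listed at 0.65 and 1.98 TPM in shNC and at 0.49 and 0.51 TPM in shTPX2 (log2 fold change −1.24, SE 0.61, edgeR adjusted p = 0.678). CASP14 was thus also lower in both shTPX2 libraries, without passing the test.

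SLC1A7 encodes EAAT5, a glutamate-gated anion channel and slow transporter of the retina. The gene (NCBI gene 6512) lies at chr1:53087183-53142638 on the minus strand. Its level was 0.21 and 0.57 TPM in the shNC libraries and 0 and 0.04 in those with shTPX2, from 6, 14, 0 and 1 counts. The groups did not overlap, but every value was low, and the gene did not pass the filter on low counts. The 20 shNC counts against 1 shTPX2 count gave a ratio of 19.0 with a counting interval of 3.04 to 788. CPT2, the nearest listed gene at higher coordinates and an enzyme of mitochondrial fatty acid import, was at 36.97 and 34.81 TPM in the shNC libraries and 33.14 and 34.3 in those with shTPX2 (log2 fold change 0.03, SE 0.16, edgeR adjusted p = 0.968). PODN, on the other side of SLC1A7, was listed at 0 to 0.03 TPM.

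SLC1A1 encodes EAAT3, the widespread EAAT of neurons, kidney and gut, which also carries cysteine for glutathione synthesis. The gene (NCBI gene 6505) lies at chr9:4490468-4587469 on the plus strand. Its level was 2.04 and 3.5 TPM in the shNC libraries and 4.01 and 8.69 in those with shTPX2. The lower shTPX2 library was only slightly above the higher shNC library, and shTPX2 2 was well above all others. The means were 2.77 ± 1.03 TPM and 6.35 ± 3.31 TPM (SD, n = 2 each), with a log2 fold change of 1.29 (SE 0.45). Without shTPX2 2 the log2 fold change was 0.67, and without shTPX2 1 it was 1.74. None of its 31-base words occurs in another gene and all of its expected counts were whole.

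SLC1A3 encodes EAAT1, an astrocyte transporter that is also found in many epithelial tumors. It was the most abundant EAAT transcript in 3 of the 4 libraries, at 6.63 and 16.16 TPM in the shNC libraries and 9.15 and 6.89 in those with shTPX2. Both shTPX2 levels lay between the shNC levels, so the groups overlapped, and the log2 fold change of −0.37 had an SE of 0.42. Its sign turned without shNC 2, where it was 0.37, and it was −0.85 without shNC 1. SLC1A2 encodes EAAT2, the main glutamate transporter of forebrain astrocytes, and was listed at 0.27 and 0.26 TPM in the shNC libraries and 0.1 and 0.27 in those with shTPX2. Only shTPX2 1 stood lower, with 13.21 expected counts against 31.8 to 33.17 in the others. The astrocyte markers in the table, 3 of 4 examined, summed to 0.98 to 3.66 TPM over the 4 libraries, and ALDH1L1 was the only one to reach 1 TPM.

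The deposited table also holds an average TPM per group, as the authors computed it, and these averages are not the means of the 2 labelled libraries. For SLC1A6 the authors' average was 3.52 TPM in shNC and 0.04 TPM in shTPX2, below the means of 5.28 and 0.08 TPM. Across all 18134 genes, 3 times the shNC average was never below the sum of shNC 1 and shNC 2, and 4 times the shTPX2 average never below the sum of shTPX2 1 and shTPX2 2 (tolerance 0.05 TPM), with 1000000 and 2000001 TPM remaining in total. The arithmetic is that of averages over 3 shNC and 4 shTPX2 libraries, of which the others were not analysed here. In what remains, SLC1A6 is at 0.0 TPM in both groups, whereas TPX2 sums to 249 TPM in shNC and 171 TPM in shTPX2. The remainders have unequal totals, so these 2 sums are not levels to set against each other. SLC1A1 and SLC1A3 likewise leave 0.0 TPM in shNC, and in shTPX2 they leave 0.02 and 0.03 TPM. The SLC1A6, SLC1A1 and SLC1A3 values given here thus describe the 4 labelled libraries. The remainder held next to none of these transcripts under either label. SLC1A7 left 0.0 TPM in shNC and 0.12 TPM in shTPX2. It was thus not lower in shTPX2 there, as it was in the labelled libraries, but these values are too low to rank. In shNC and shTPX2, SLC1A2 left 0.01 and 0.21 TPM, SLC1A4 left 4.47 and 23.8 TPM and SLC1A5 left 162 and 453 TPM. These sums too come from unequal totals, 1000000 TPM in shNC and 2000001 TPM in shTPX2, and are not levels to compare between the groups.

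**Figure D2:**
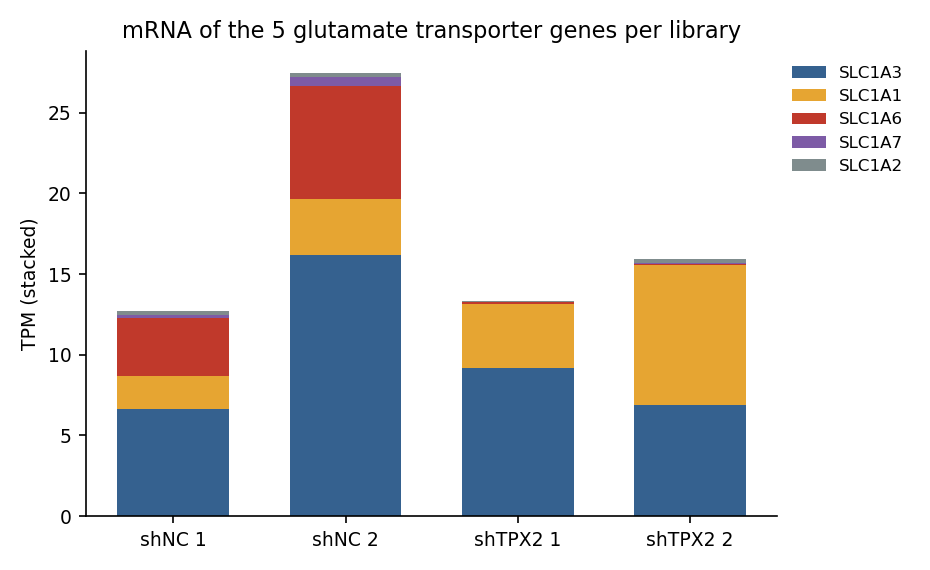
Stacked TPM of the 5 EAAT genes in each library, on a linear axis that starts at 0. The SLC1A6 share is 28.1% and 25.4% in the shNC libraries and 0.749% and 0.376% in the shTPX2 libraries, while the total is highest in shNC 2 at 27.46 TPM.

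The make-up of the EAAT transcripts in each library includes the SLC1A6 level that chose the family, so its shares are a description. The summed EAAT level was 12.73 and 27.46 TPM in the shNC libraries and 13.36 and 15.95 in those with shTPX2, so the totals overlapped. SLC1A6 made up 28.1% and 25.4% of this sum in shNC against 0.749% and 0.376% in shTPX2, and SLC1A1 made up 16% and 12.7% in shNC against 30% and 54.5% in shTPX2. SLC1A3 held the largest share in each library except shTPX2 2, where SLC1A1 exceeded it. The shares add to a fixed total, so that a lower SLC1A6 share by itself raises the others.

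SLC1A5 encodes ASCT2, the glutamine transporter of proliferating cells, and made up 87.1% to 95% of all SLC1A transcripts by TPM. The gene (NCBI gene 6510) lies at chr19:46774883-46788594 on the minus strand. Its level was 355.74 and 205.62 TPM in the shNC libraries and 342.98 and 349.16 in those with shTPX2. The 2 shTPX2 libraries and shNC 1 were close together, and shNC 2 alone was lower. The log2 fold change was 0.41 (SE 0.28), and without shNC 2 it was 0.05. In CPM after TMM scaling the shTPX2 values, 503.924 and 492.749, were both above the shNC values, 478.998 and 271.992, whereas in TPM the groups overlapped, so the order of shNC 1 depends on the scale. Of the SLC1A5 31-base words, 22.8% occur in other genes, and its expected counts were fractional in all 4 libraries.

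SLC1A4 encodes ASCT1, a serine and alanine exchanger. Its level was 6.16 and 2.93 TPM in the shNC libraries and 8.09 and 3.29 in those with shTPX2. The libraries numbered 1 were above the libraries numbered 2 in both groups, and the groups overlapped. The log2 fold change of 0.45 had an SE of 0.54 and ranged from −0.37 to 1.13 when single libraries were left out.

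**Figure D3:**
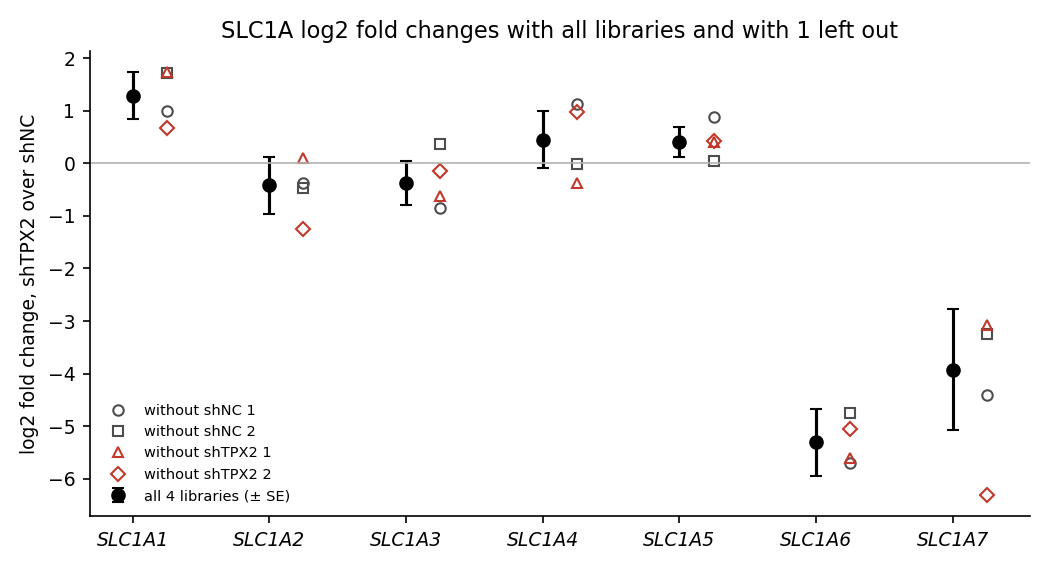
Log2 fold change of each SLC1A gene, shTPX2 over shNC, from the edgeR fit (black points, bars ± SE) and with each library left out in turn (open symbols). SLC1A6 stays between −5.7 and −4.75 and SLC1A1 between 0.67 and 1.74, whereas the values of SLC1A2, SLC1A3 and SLC1A4 fall on both sides of 0.

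Under the quasi-likelihood test of edgeR with Benjamini-Hochberg adjustment, 0 of 14048 genes (0%) and thus no SLC1A gene passed an adjusted p of 0.05, and the smallest adjusted p in the table was 0.109. At an unadjusted p under 0.05 the same test counted 1128 genes (8.03%), and DESeq2 called 111 genes (0.79%) at an adjusted p under 0.05. SLC1A6 was 1 of the 111, and as its value chose the family nothing is read from that call. The study's methods give limits of 0.1 for the p of limma voom and 0.3 for the log fold change of differentially expressed genes. Read here as an unadjusted p and an absolute log2 fold change, which the methods do not spell out, these criteria counted 876 genes higher in shTPX2 (6.24%) and 1122 lower (7.99%). SLC1A1 was among the higher genes and SLC1A6 among the lower, 2 of the 6 members tested. These 2 are not read as a result, since the family was selected on the same contrast and SLC1A6 passed the filter on low counts only through the shNC libraries. Without shNC 1, SLC1A3, SLC1A5, SLC1A6 and SLC1A7 passed these criteria and SLC1A1 did not, while 3515 genes passed in all. Without shTPX2 2, SLC1A4, SLC1A6 and SLC1A7 passed and SLC1A1 did not, while 1018 genes passed in all. Without shTPX2 1, SLC1A7 joined SLC1A1 and SLC1A6, among 1580 genes.

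Groups that do not overlap were frequent among the 14048 tested genes. In TMM-scaled CPM, both shTPX2 libraries were above both shNC libraries for 2720 genes (19.4%) and below them for 2841 genes (20.2%). Among the 6 SLC1A genes tested, SLC1A1 and SLC1A5 were of the former kind and SLC1A6 of the latter, and SLC1A7, which was not tested, was also lower.

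The 5 genes whose profile of centred log2 CPM over the 4 libraries was nearest to that of SLC1A6 by Euclidean distance were VWA5A, SLC2A3, MRC2, LEMD1 and MAP9. With 4 libraries, likeness rests mainly on the size of the group difference, and at low counts on the prior count of 2 as well. In the shTPX2 libraries VWA5A had 1 count each and MAP9 had 0 and 1. VWA5A was the nearest at a distance of 0.2547, with 1.89 and 3.9 TPM in the shNC libraries and 0.05 and 0.03 in those with shTPX2. SLC2A3, the neuronal-type glucose transporter GLUT3, followed at a distance of 1.2, with 7.48 and 10.49 TPM in the shNC libraries and 0.63 and 0.8 in those with shTPX2. MRC2, an endocytic collagen receptor, was at 1.23 and 3.62 TPM in the shNC libraries and 0.23 and 0.18 in those with shTPX2. The gap from VWA5A to SLC2A3 was larger than the gaps among the 4 genes further out, whose distances were 1.2 to 1.607. LEMD1, a cancer-testis antigen, was the most abundant of the 5 in shNC 2 at 27.35 TPM, and MAP9, a microtubule-associated protein of the spindle, the least abundant there at 0.28 TPM.

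**Figure D4:**
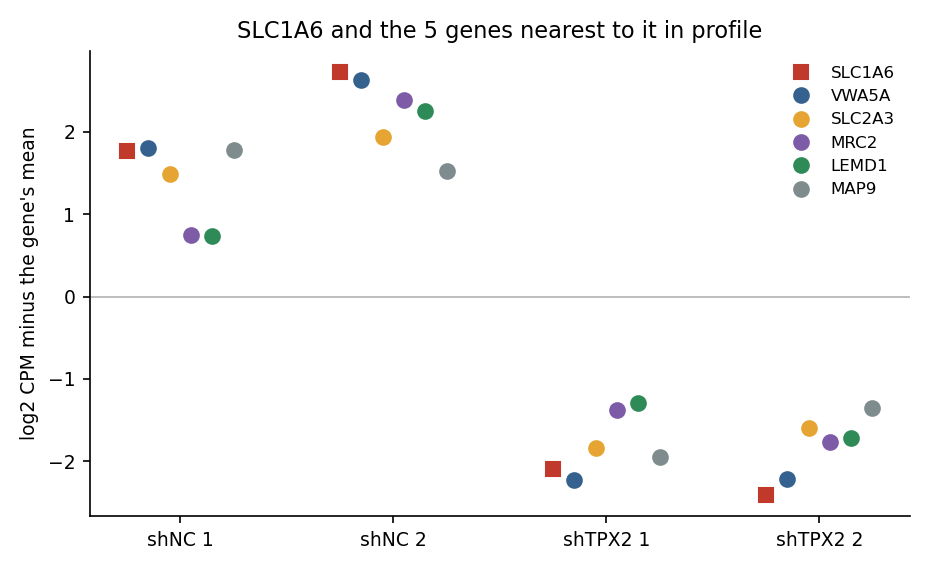
Centred log2 CPM of SLC1A6 (squares) and the 5 genes nearest to it in profile (circles) in each library. Each gene is above its own mean in both shNC libraries and below it in both shTPX2 libraries, and VWA5A has the smallest distance from SLC1A6 over the 4 libraries.

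Genes that work beside the SLC1A transporters were grouped in 8 lists without any SLC1A member, and 86 of the 116 listed genes passed the filter. By the limma criteria, 5 were higher and 6 were lower in shTPX2, against 6.24% and 7.99% of all genes, and edgeR called 0 of them at an adjusted p under 0.05, 10 at an unadjusted p under 0.05, while DESeq2 called 0. Their median log2 fold change was 0.09, against −0.01 over all 14048 genes. The count of 11, beside 1998 in all genes, was 32 beside 3515 without shNC 1, 7 beside 1872 without shNC 2, 7 beside 1580 without shTPX2 1 and 11 beside 1018 without shTPX2 2.

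Among other amino acid transporters, SLC7A7 and SLC7A8 were the 2 of 9 tested cationic and heteromeric carriers past the limma criteria, both lower, against 7.99% of all tested genes. SLC7A7, the light chain that exports arginine and lysine, was at 14.9 and 10.43 TPM in the shNC libraries and 5.39 and 3.76 in those with shTPX2 (log2 fold change −1.35, SE 0.33, edgeR adjusted p = 0.567). SLC7A8, which exchanges neutral amino acids, was at 8.1 and 7.82 TPM in the shNC libraries and 2.74 and 4.98 in those with shTPX2 (−1.02, SE 0.31, edgeR adjusted p = 0.579). Neither gene overlapped between groups, as was so for 20.2% of tested genes in the same direction. Of 16 sodium-coupled and other neutral carriers, 1 was past the criteria, as higher, against 6.24% of all tested genes. This was SLC43A3, a purine base transporter, at 139.19 and 102.72 TPM in shTPX2 against 69.23 and 97.81 TPM in shNC (0.66, SE 0.24, edgeR adjusted p = 0.601).

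Of the 28 tested genes of glutamate and glutamine metabolism, 20 had a log2 fold change above 0 and 8 below. Their median was 0.16, and over all genes 6863 were above 0 and 7185 below. By the limma criteria 3 of the 28 were higher and 1 was lower, against 6.24% and 7.99% of all tested genes. PYCR1, which makes proline in mitochondria, was at 71.4 and 54.2 TPM in the shNC libraries and 104.92 and 82.49 in those with shTPX2 (log2 fold change 0.69, SE 0.23, edgeR adjusted p = 0.579). CTPS1, the glutamine-using CTP synthase, stood at 42.92 and 41.45 TPM in the shNC libraries and 59.34 and 52.53 in those with shTPX2 (0.53, SE 0.17, edgeR adjusted p = 0.579). The lower gene was GLS2, the liver-type glutaminase, at 2.84 and 4.06 TPM in the shNC libraries and 1.71 and 1.53 in those with shTPX2 (−0.94, SE 0.37, edgeR adjusted p = 0.619). PYCR3, the cytosolic proline enzyme, was the other higher gene (0.43, SE 0.21, edgeR adjusted p = 0.674). Of 5 vesicular and mitochondrial carriers, 1 passed as higher, against 6.24% of all tested genes. This was SLC25A22, which brings glutamate into mitochondria (0.54, SE 0.18, edgeR adjusted p = 0.579).

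Glutamate receptors were mostly too low to be tested, with 8 of 24 listed genes passing the filter. Of these 8, GRIK2, GRIN3A and GRIN3B were past the limma criteria as lower, against 7.99% of all tested genes. The log2 fold change was above 0 for 3 of the 8 and below 0 for 5, with a median of −0.61, against −0.01 over all genes. A gene can pass the filter through the libraries of either group alone, which favors genes that differ between the groups in either direction. Whether these receptor genes passed through the shNC libraries alone was not tested, so the count and the median are a description. GRIK2, a kainate receptor subunit, was at 1.15 and 0.79 TPM in the shNC libraries and 0.16 and 0.17 in those with shTPX2 (−1.5, SE 0.46, edgeR adjusted p = 0.579). GRIN3A and GRIN3B, NMDA receptor subunits, had log2 fold changes of −1.48 (SE 0.58, edgeR adjusted p = 0.619) and −1.2 (SE 0.49, edgeR adjusted p = 0.621), at no more than 1.36 TPM in any library. All 3 were thus low in both groups. The neuron markers summed to 27.1 to 28.4 TPM in shNC and 22.8 to 26 TPM in shTPX2, of which only MAP2 and TUBB3 of 5 reached 1 TPM, and their part in these values was not tested.

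No gene of the serine synthesis list, the sodium pump list or the list of EAAT binding proteins passed the limma criteria, out of 6, 5 and 9 tested. Over all tested genes, 6.24% passed as higher and 7.99% as lower. PHGDH, the entry enzyme of serine synthesis, was at 453.4 and 298.82 TPM in the shNC libraries and 494.51 and 248.28 in those with shTPX2 (log2 fold change 0.11, SE 0.38, edgeR adjusted p = 0.961). SLC9A3R1, a scaffold of epithelial membrane proteins, was the most abundant of the binding list (0.4, SE 0.27, edgeR adjusted p = 0.75).

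**Figure D5:**
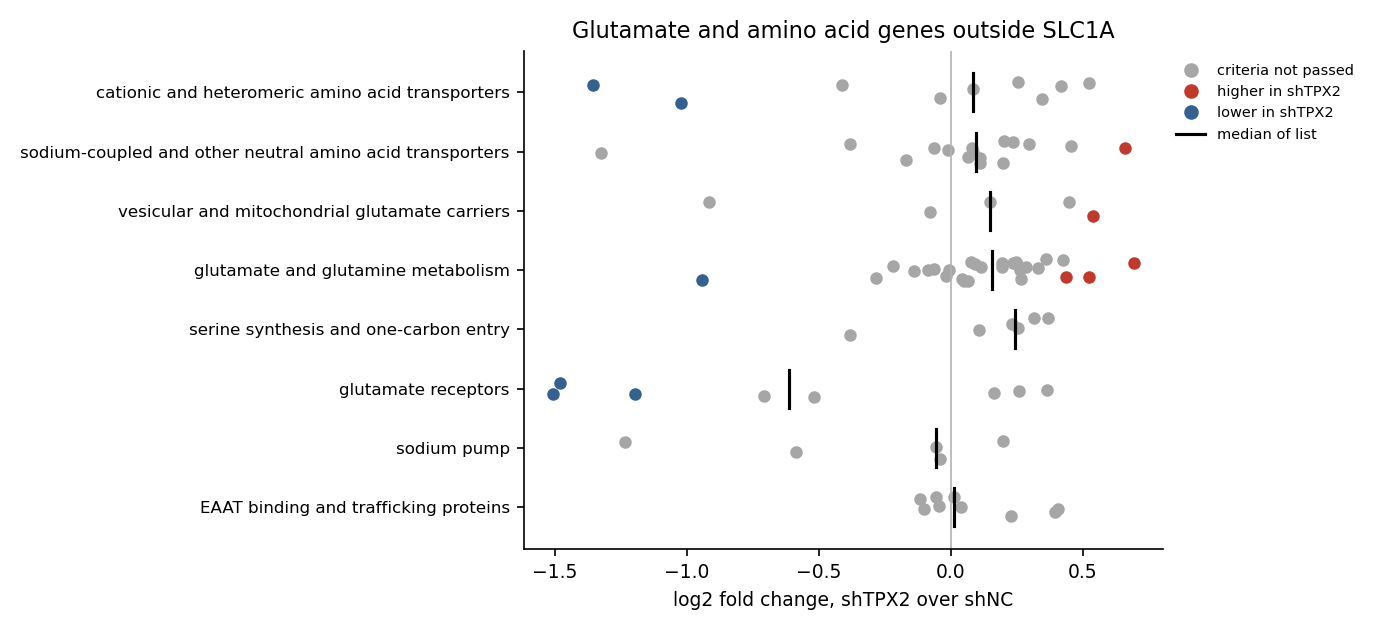
Log2 fold change, shTPX2 over shNC, of the 86 tested genes in the 8 lists (1 point per gene, spread vertically for legibility), with red and blue for genes past the limma criteria as higher or lower and black lines at list medians. The glutamate receptor median lies at −0.61 and the other list medians between −0.06 and 0.24.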

How the data were processed

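Poly(A) RNA-seq was analysed for 4 PC9 libraries, shNC 1 and 2 and shTPX2 1 and 2, grouped by their labels. The methods name SOAPnuke, HISAT2/Bowtie2 and RSEM or StringTie, whereas the submitters' processing notes name HISAT2, featureCounts, DESeq2 and GRCh38; which of these made the table is not settled by these sources. The authors deposited an expected count (estimated count, with no depth normalization), a TPM and an FPKM value per gene and library. Expected counts were fractional for 42.15% to 44.58% of genes per library. The deposited FPKM values and the authors' average columns entered no test; the average counts, TPM and FPKM equal the mean of the 2 libraries (within 0.011) for 0.626% to 9.29% of expressed genes, and their arithmetic is that of 3 shNC and 4 shTPX2 libraries.

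Expected counts were rounded, genes were kept by filterByExpr (14048 of 18134), and edgeR 4.0.16 (TMM, quasi-likelihood, Benjamini-Hochberg), limma 3.58.1 (voom) and DESeq2 1.42.0 were run in R 4.3.3 over all genes. The scripts were tested on simulated data. SLC1A7 did not pass the filter, and its fold change comes from the unfiltered fit. The common dispersion was 0.0485. Members and lists were chosen with earlier results of these data known. Named genes were the members, TPX2, up to 4 genes per list past the limma criteria with the smallest p (else the most abundant gene; 1 such gene is not reported here), the 5 nearest profiles and the flanking genes of SLC1A6 and SLC1A7. Genes named for their difference between library numbers were chosen after their values were seen. Profile distances used log2 CPM with a prior count of 2. Alternatives were other scalings, no filter, unrounded counts, a replicate block, each library left out, other tests and log2(TPM + pseudocount).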

Additional observations from a re-analysis of the deposited data

How the results depend on the processing

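Under other scalings, without rounding and with edgeR at the same criteria, SLC1A1 and SLC1A6 remained the 2 members past the limma criteria. With single libraries left out the number of members ranged from 2 to 4, it was 3 without a filter on low counts (2488 genes in all), where SLC1A7 joined, and it was 0 at an adjusted p (Benjamini-Hochberg) no larger than 0.1. The count of edgeR calls, 0 with all libraries, ranged from 0 to 23 with single libraries left out (23 without shNC 1, SLC1A6 among them, and 11 without shNC 2) and DESeq2 gave 111, SLC1A6 included. Leaving out a library leaves 1 library in a group, which is assumed to vary like the others. Genes past the limma criteria numbered 1018 to 3515 with single libraries left out, 3515 without shNC 1 and 1018 without shTPX2 2, and 1 with adjustment. Without normalization factors the 1998 genes (876 higher, 1122 lower) became 2023 (578 higher, 1445 lower), with the median log2 fold change at −0.08 instead of −0.01. The 11 list genes became 19 without a filter, 7 to 32 with single libraries left out and 0 with adjustment. With the replicate number as a block, 2447 genes passed the criteria in all, list genes numbered 17, SLC1A5 joined SLC1A1 and SLC1A6, and edgeR called 0 genes. Deviations from the group mean correlated at 0.182 across the tested genes between shNC 1 and shTPX2 1. The labels give the library number no meaning, so the block is an alternative only.

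With single libraries left out the log2 fold change was 0.67 to 1.74 for SLC1A1, −1.25 to 0.11 for SLC1A2, −0.85 to 0.37 for SLC1A3, −0.37 to 1.13 for SLC1A4, 0.05 to 0.88 for SLC1A5, −5.7 to −4.75 for SLC1A6 and −6.31 to −3.08 for SLC1A7. The sign turned for SLC1A2, SLC1A3 and SLC1A4, and the cause was not tested. The SLC1A7 value of −6.31 leaves a shTPX2 library with 0 counts, so its size depends on the prior count. On log2(TPM + 1) the difference was −2.48 for SLC1A6 and −0.43 for SLC1A7, and on log2(TPM + 0.1) it was −1.95 for SLC1A7, since a pseudocount draws low values together. Depth limits the shTPX2 values of SLC1A6 and SLC1A7, which rest on 5 counts and 1 count in all.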

Other observations

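SLC1A4 differed more between library numbers than between hairpins. Its log2 CPM in library 1 exceeded that in library 2 by 1.12 in shNC and by 1.34 in shTPX2, against 0.40 between the group means. SLC1A1 had the opposite order, with differences of −0.72 in shNC and −1.07 in shTPX2. This pattern was noticed in the values and has no test. Among the 86 tested genes of the 8 lists, 12 (14%) were higher in library 1 by at least 0.5 in both groups, against 315 of 14048 genes (2.24%), and 1 was lower by as much in both, against 548 genes (3.9%). The 12 were AJUBA, ASNS, GPT2, PHGDH, PSAT1, SHMT2, SLC38A1, SLC3A2, SLC7A1, SLC7A11, SLC7A5 and SLC7A7.

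ASNS, which makes asparagine from glutamine, had the largest of these differences, 1.88 in shNC and 2.26 in shTPX2. PSAT1, the transaminase of serine synthesis, was at 226.62 and 80.44 TPM in the shNC libraries and 263.44 and 101 in those with shTPX2. SLC7A5 and SLC3A2, the 2 chains of the leucine transporter LAT1, differed by 1.83 and 0.99 in shNC and by 1.51 and 0.63 in shTPX2. SLC7A11, the cystine and glutamate antiporter, differed by 1.26 in shNC and 1.47 in shTPX2. SLC1A6 showed no such order, with differences of −0.95 in shNC and 0.31 in shTPX2. The labels give the library number no meaning.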
